A study of Mus musculus with 8 samples.

Results

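The genes of the Rad9-Hus1-Rad1 checkpoint clamp, of its loader and of the kinase pathway that it activates were examined in mouse embryonic stem cells (mESCs) with and without Rad9. The members were given by symbol and matched to the Ensembl identifiers of the deposited gene count table, which gave 10 genes of the 50686 in the table: Rad9a, Rad9b, Hus1, Hus1b, Rad1, Rad17, Topbp1, Atr, Atrip and Chek1. Rad9a was matched through its older symbol Rad9. All 10 passed the filter on low counts, as did 20473 genes in all.

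The 8 libraries came from mESCs of 2 genotypes, wild type (R9wt) and Rad9-/- (R9del), grown in a culture payload on the SJ-10 satellite (Space) or in the same kind of payload on the ground (Ground), and fixed after 1 day (D1) or 5 days (D5). Each combination of location, genotype and culture duration had 1 library and no replicate, so the groups compared are sets of 4 libraries that share 1 condition and differ in the other 2. The spread within a group therefore holds the effects of the other conditions as well as the variation between cultures. The number of clones behind each genotype and the part of the Rad9a gene that was removed are not given in the sources used here. The D1 and D5 cultures were kept in separate device groups with their own temperature control and were seeded at different densities, and the D5 cultures of R9del started from more cells than those of R9wt because R9del grows more slowly. Fixed cells were stored in the cold, and fixation came earlier for the D1 cultures. Culture duration therefore cannot be told apart from device group, seeding and storage after fixation. The difference between the genotypes at D5 cannot be told apart from their seeding. In each of the 8 libraries a gene's level is an average over the culture, in which fewer cells of a type and less RNA per cell cannot be told apart.

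Library totals ran from 58238440 counts in Space_R9del_D5 to 96416907 in Ground_R9wt_D5. Levels are given as CPM, counts scaled to the library totals after a correction by TMM in edgeR, with factors from 0.951 to 1.04. A gene with no count in a library could have had up to 3 counts by counting error alone, or 0.0327 to 0.0514 CPM. The 10 genes most abundant in a library took between 5.58% of its counts in Ground_R9del_D1 and 8.21% in Ground_R9wt_D5. The mitochondrial genes took between 1.12% in Space_R9wt_D5 and 3.39% in Ground_R9del_D1, and in each of the 4 pairs of libraries that shared genotype and day their share was lower in space. The mitochondrial share was also higher in R9del in each of the 4 pairs that shared location and day. It was lower at D5 in each of the 4 pairs that shared location and genotype. The share of the 10 most abundant genes was 5.58% to 5.97% in R9del and 6.17% to 8.21% in R9wt.

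The Rad9, Hus1 and Rad1 proteins form a ring that is loaded onto DNA at stalled forks and at resected breaks by Rad17 together with the small subunits of replication factor C. The ring recruits Topbp1, which activates the kinase Atr on its partner Atrip, and Atr phosphorylates Chek1, the kinase that holds back the cell cycle by acting on Cdc25 phosphatases. Rad9b and Hus1b are paralogues of Rad9a and Hus1 that are known chiefly from the germ line.

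Rad9a (ENSMUSG00000024824), the targeted gene, lies on the reverse strand of mm9 at chr19:4195198-4201603, with 11 distinct exons of 2046 bases in all. In the R9wt libraries it stood at 91.5 CPM in Ground_R9wt_D1, 83.8 in Ground_R9wt_D5, 90.9 in Space_R9wt_D1 and 70.6 in Space_R9wt_D5. In the R9del libraries it stood at 23.6 CPM in Ground_R9del_D1, 28.1 in Ground_R9del_D5, 20.9 in Space_R9del_D1 and 27.5 in Space_R9del_D5. Every R9del library was thus below every R9wt library, so the genotype labels held in all 8. The means were 84.2 ± 9.72 CPM in R9wt and 25 ± 3.39 CPM in R9del (SD, n = 4 each). Rad9a fell by 1.75 on the log2 scale (SE 0.21, 95% interval -2.22 to -1.28), a level 3.37-fold lower, with an adjusted p of 0.0277 in edgeR's quasi-likelihood test. The level in R9del was 0.23 of that in R9wt for the space D1 pair, 0.259 for the ground D1 pair, 0.335 for the ground D5 pair and 0.39 for the space D5 pair.

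The Rad9a signal that remained in R9del rested on 1461 to 2095 counts per library, far above the counting limit of 3. Gene counts do not show which exons these reads came from. The last exons of Rad9a overlap those of Ppp1ca, a catalytic subunit of protein phosphatase 1 on the opposite strand, over 222 bases, or 10.9% of the Rad9a exons. Ppp1ca stood between 391 and 676 CPM in the 8 libraries, its groups overlapped, and its log2 fold change in R9del was 0.18 (95% interval -0.33 to 0.68; higher in 4 of 4 pairs). Because the use of strand in counting is not given in the sources used here, the part of Ppp1ca reads in the remaining Rad9a signal was not tested. The Rad9a transcript had 0 matches of at least 90% identity over at least 100 bases elsewhere in mm9.

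Rad9a was the 1 member of 10 called at an adjusted p under 0.05 in R9del against R9wt, beside 417 of 20473 genes (2.04%) over the whole table, of which 243 were higher (1.19%) and 174 lower (0.85%). That balance depended on the fit, with 979 higher and 1067 lower by DESeq2, 910 and 823 with the pairs as a block, 243 and 285 without Ground_R9wt_D1, 64 and 65 without Space_R9wt_D5, 66 and 29 without Ground_R9del_D5, 84 and 19 without Space_R9del_D5, and 246 and 127 with library size alone. At a fold change of 2 or more with an unadjusted p under 0.05, computed here with edgeR, 2 members passed, Rad9a and Hus1b, beside 2816 genes (13.8%). The same 2 members had groups that did not overlap, as did 2908 genes (14.2%). When the 4 pairs that share location and day entered the model as blocks, 1733 genes were called, 415 of the 417 among them, and Rad9a was the member called (adjusted p 0.00854, lower in 4 of 4 pairs). The call of Rad9a was lost without Ground_R9wt_D5 (adjusted p 0.0681), Space_R9wt_D1 (0.0772), Ground_R9del_D1 (0.101) or Space_R9del_D1 (0.0732), when 0 genes of the table were called by edgeR although 2976 to 3607 had an unadjusted p under 0.05. Leaving out 3 other libraries kept the Rad9a call with fewer genes called in the table, 129 without Space_R9wt_D5 (adjusted p of Rad9a 0.0473), 95 without Ground_R9del_D5 (0.0424) and 103 without Space_R9del_D5 (0.0349). The Rad9a fold change itself lay between -1.83 and -1.69 on the log2 scale whichever library was left out, and DESeq2's Wald test on all 8 gave an adjusted p of 6.37e-12.

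**Figure D1:**
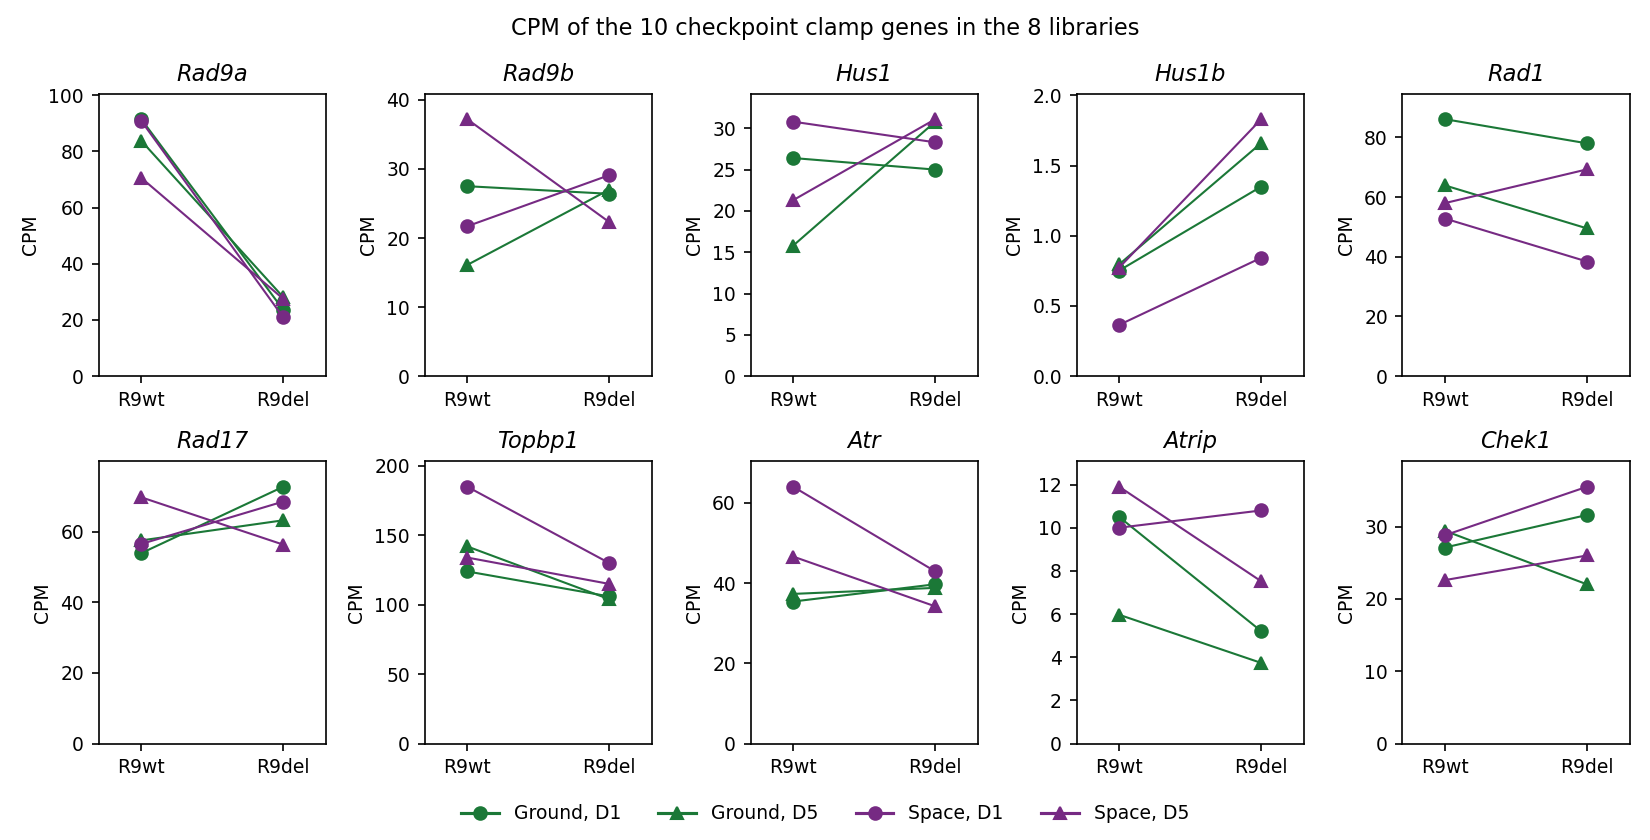
CPM of the 10 clamp genes in R9wt (left) and R9del (right), 1 panel a gene with its own linear axis from 0. Each point is 1 library, lines join libraries that share location and day, green is ground, purple is space, circles are D1 and triangles D5. Rad9a falls from 70.6 to 91.5 CPM in R9wt to 20.9 to 28.1 CPM in R9del, and the lines of the other genes run in both directions or cross, except for Hus1b (upward) and Topbp1 (downward).

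The partners of Rad9a in the ring were next compared between the genotypes. Hus1 (chr11:8893140-8911194, reverse strand of mm9), the second ring subunit, stood at 26.4 CPM in Ground_R9wt_D1, 15.8 in Ground_R9wt_D5, 30.8 in Space_R9wt_D1 and 21.3 in Space_R9wt_D5, against 25, 30.8, 28.3 and 31.1 in the R9del libraries of the same order. The groups overlapped, and the 2 low values of R9wt were its D5 libraries. The log2 fold change of Hus1 in R9del was 0.29 (SE 0.26, 95% interval -0.3 to 0.87; adjusted p 0.581). Rad1 (chr15:10415773-10428818, forward strand), the third subunit, stood at 86.1, 63.9, 52.8 and 58 CPM in R9wt and at 78, 49.5, 38.4 and 69.3 CPM in R9del, in the same order of libraries. Its groups overlapped over most of their range, and its log2 fold change was -0.15 (SE 0.28, 95% interval -0.77 to 0.47; adjusted p 0.806). Of the longest coding transcript of Rad1, 1212 of 4085 bases (29.7%) had near-identical matches elsewhere in mm9, 2690 matches in all, so its level is uncertain where the counting let such reads in.

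The paralogues were measured beside the subunits that they resemble. Rad9b (chr5:122773232-122804242, reverse strand) stood at 27.5 CPM in Ground_R9wt_D1, 16.1 in Ground_R9wt_D5, 21.7 in Space_R9wt_D1 and 37.2 in Space_R9wt_D5, and between 22.3 and 29.1 CPM in R9del. The R9del values lay inside the range of R9wt, with a log2 fold change of 0.03 (SE 0.29, 95% interval -0.61 to 0.67; adjusted p 0.967). Exons of Pptc7, a mitochondrial phosphatase gene on the other strand, share 1002 bases with Rad9b, 34.3% of its exons, and Pptc7 itself stood between 11.9 and 24.6 CPM, so the 2 genes' reads could have been exchanged and the Rad9b level is uncertain.

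Hus1b (chr13:31038442-31039628, reverse strand), a gene of 1 exon inside the body of Exoc2, was the member with the lowest level. It stood at 0.752 CPM in Ground_R9wt_D1, 0.796 in Ground_R9wt_D5, 0.365 in Space_R9wt_D1 and 0.773 in Space_R9wt_D5, from 24 to 73 counts. In R9del it stood at 1.35 CPM in Ground_R9del_D1, 1.66 in Ground_R9del_D5, 0.843 in Space_R9del_D1 and 1.83 in Space_R9del_D5, from 59 to 124 counts. Every R9del value was above every R9wt value, and the level was higher in R9del in 4 of 4 matched pairs, by 1.77-fold to 2.32-fold. The log2 fold change was 1.08 (SE 0.44, 95% interval 0.11 to 2.05), with an unadjusted p of 0.0328, an adjusted p of 0.204 and an adjusted p of 0.116 with the pairs as a block, so Hus1b was not called. Exoc2, an exocyst gene on the same strand whose introns hold Hus1b, stood between 24 and 57.3 CPM and had a log2 fold change of -0.27 (adjusted p 0.715) in R9del. Whether unspliced Exoc2 RNA adds to the Hus1b counts was not tested.

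RefSeq promoters (GRCm38.p6, 250 bases before to 50 after the start) were matched for 9 of the 10 members, not for Rad9a, and those of the 4 other clamp genes are shown because these are the genes whose levels were compared with the loss of Rad9a. Capitals mark CG dinucleotides. The windows are chr5:122354156-122354455 (reverse strand) for Rad9b, chr11:9011142-9011441 (reverse strand) for Hus1, chr13:30947712-30948011 (reverse strand) for Hus1b and chr15:10485768-10486067 (forward strand) for Rad1, the first of its 2 entries.
Rad9b: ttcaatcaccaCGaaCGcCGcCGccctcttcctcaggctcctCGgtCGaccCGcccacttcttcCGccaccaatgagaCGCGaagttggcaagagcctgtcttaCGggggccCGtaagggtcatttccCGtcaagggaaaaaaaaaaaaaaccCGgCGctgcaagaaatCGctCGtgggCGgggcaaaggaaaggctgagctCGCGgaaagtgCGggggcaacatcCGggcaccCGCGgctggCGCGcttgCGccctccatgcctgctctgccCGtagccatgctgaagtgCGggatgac
Hus1: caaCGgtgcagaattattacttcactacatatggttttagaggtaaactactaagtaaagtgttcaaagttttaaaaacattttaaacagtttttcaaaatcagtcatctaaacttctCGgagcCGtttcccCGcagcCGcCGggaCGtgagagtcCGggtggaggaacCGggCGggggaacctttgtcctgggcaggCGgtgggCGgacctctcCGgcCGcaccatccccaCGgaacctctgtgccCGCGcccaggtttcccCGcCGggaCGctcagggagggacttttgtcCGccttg
Hus1b: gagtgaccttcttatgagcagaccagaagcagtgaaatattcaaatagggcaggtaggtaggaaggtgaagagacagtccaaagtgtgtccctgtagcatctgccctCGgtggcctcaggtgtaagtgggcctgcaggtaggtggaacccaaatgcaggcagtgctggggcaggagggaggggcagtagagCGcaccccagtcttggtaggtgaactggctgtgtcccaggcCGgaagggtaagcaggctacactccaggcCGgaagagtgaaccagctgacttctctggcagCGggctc
Rad1: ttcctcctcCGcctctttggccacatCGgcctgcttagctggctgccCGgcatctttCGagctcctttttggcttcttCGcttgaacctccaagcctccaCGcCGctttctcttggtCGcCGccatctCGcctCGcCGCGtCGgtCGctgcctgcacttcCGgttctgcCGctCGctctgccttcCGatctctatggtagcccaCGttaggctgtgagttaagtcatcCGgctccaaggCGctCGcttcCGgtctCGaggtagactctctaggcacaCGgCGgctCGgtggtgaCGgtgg
Rad9b and Rad1 hold 29 CG dinucleotides each and Hus1 holds 21, whereas Hus1b holds 5, below the median of 7 over the 32851 promoters of this length. The other members with a promoter hold 22 (Atr and Chek1), 26 (Atrip), 32 (Rad17) and 38 (Topbp1). An E2F-type motif, searched on both strands as TTTCCCGC, TTTCGCGC, TTTGCCGC or TTTGGCGC, all of which contain a CG, was in the window of 1 member, Topbp1, and in 2.26% of all promoters. The low CG content of the Hus1b window stands beside the lowest level of the 10 genes, and its part in that level was not tested.

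Beyond the ring, Rad17, the large subunit of the clamp loader, stood between 53.9 and 69.7 CPM in R9wt and between 56.3 and 72.7 CPM in R9del, with a log2 fold change of 0.13 (95% interval -0.3 to 0.57). Topbp1, which binds the tail of Rad9 and activates Atr, stood at 124 CPM in Ground_R9wt_D1, 142 in Ground_R9wt_D5, 185 in Space_R9wt_D1 and 134 in Space_R9wt_D5. In R9del it stood at 106, 104, 130 and 115 CPM in the same order. Topbp1 was lower in R9del in 4 of 4 matched pairs, at 0.705 to 0.855 of the R9wt level, but its groups overlapped because Space_R9del_D1 lay above Ground_R9wt_D1. The share of all genes with 4 of 4 pairs in the same direction was not computed, so that count does not set Topbp1 apart. Its log2 fold change was -0.36 (SE 0.2, 95% interval -0.81 to 0.09), with an adjusted p of 0.345 and of 0.18 with the pairs as a block, and 486 of its 5228 transcript bases (9.3%) match elsewhere in mm9.

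The kinase and its partners were also measured. Atr stood between 35.4 and 64 CPM in R9wt and between 34.2 and 42.9 CPM in R9del (log2 fold change -0.24, 95% interval -0.79 to 0.31). Atrip, its obligate partner, stood at 10.5, 5.97, 10 and 11.9 CPM in R9wt and at 5.21, 3.74, 10.8 and 7.52 CPM in R9del, in the same order of libraries as above. It was lower in R9del in 3 of 4 matched pairs and not in the space D1 pair, and its log2 fold change was -0.49 (SE 0.39, 95% interval -1.36 to 0.37; adjusted p 0.516). The annotation gives Atrip and the exonuclease gene Trex1 1314 exon bases in common on the same strand, 25.8% of the Atrip exons, and Trex1 stood between 0.36 and 3.23 CPM, so Atrip counts depend on how such reads were assigned. Chek1, the kinase at the end of the pathway, stood between 22.6 and 29.4 CPM in R9wt and between 22 and 35.5 CPM in R9del (log2 fold change 0.09, 95% interval -0.44 to 0.63).

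Whether the partners followed the loss of Rad9a can be read from their intervals. Of the 9 partners edgeR called 0, beside 417 of 20473 genes (2.04%). DESeq2 and the block also called 0 of the 9, beside 2046 and 1733 genes. Of the partners 1 had an unadjusted p under 0.05 (Hus1b), beside 4135 of 20473 genes. These counts do not set the partners apart from other genes. The partners had 5 fold changes above 0 and 4 below, with a median of 0.03 against -0.05 over all genes tested. The interval of 0 of the 9 reached the Rad9a change of -1.75. The lowest bound was that of Atrip, -1.36, the 1 interval that held a level lower by a factor of 2, and the intervals of 8 of the 9 held 0, all but Hus1b. The Atrip bound lay inside the interval of Rad9a itself, -2.22 to -1.28, so the intervals of Atrip and Rad9a overlapped.

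**Figure D2:**
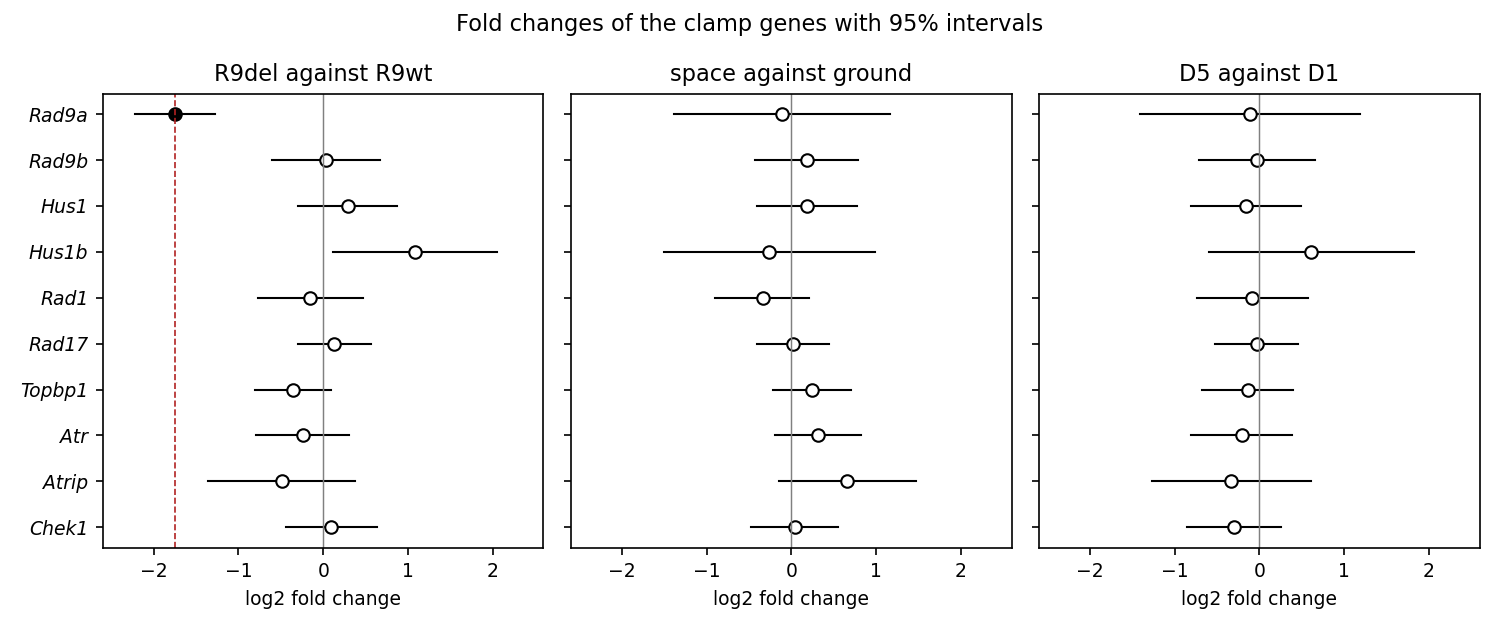
Log2 fold changes of the 10 clamp genes (points) with 95% intervals (lines) in 3 comparisons of 4 libraries against 4. Filled points are called at an adjusted p under 0.05 over all genes tested and open points are not, and the dashed red line marks the Rad9a change of -1.75, which the interval of no partner reaches.

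Levels between genes were compared per kilobase of exon, with exon lengths from the GENCODE annotation, which holds 64.6% of the deposited identifiers and may differ from the gene models used for counting. In R9wt the order was Rad9a at 41.2 ± 4.75 CPM per kb (mean ± SD, n = 4), Topbp1 at 28 ± 5.1, Rad17 at 20.9 ± 2.48, Rad1 at 8.81 ± 1.98, Rad9b at 8.78 ± 3.08, Chek1 at 5.8 ± 0.657, Atr at 5.39 ± 1.54, Hus1 at 3.66 ± 1.01, Atrip at 1.89 ± 0.498 and Hus1b at 0.566 ± 0.173. Rad1 and Rad9b did not differ beyond their spread, nor did Chek1 and Atr. On these exon lengths Rad9a ranked 3 of 10 in R9del, at 12.2 ± 1.65 CPM per kb, below Rad17 (22.9 ± 2.49) and Topbp1 (21.7 ± 2.3). That value uses the exon length of the intact gene. The removed part and the exons of the remaining reads are not known, so the level and rank of Rad9a per kb in R9del are uncertain. Of the ring subunits, Rad9a had the highest level per kb in R9wt, and in R9del Rad1 stood at 7.94 ± 2.45 and Hus1 at 4.46 ± 0.437 CPM per kb. The exon length of Rad1, 7.4 kb, and of Hus1, 6.45 kb, sums all annotated forms, which lowers their values on this scale, so the order of Rad9a and Rad1 in R9del depends on the length used.

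The variation of each member over the 8 libraries was divided among location, genotype, day and their interactions by their sums of squares on the log2 CPM scale (prior count 2), as a description without replicate error. Genotype held 96.7% of the variation of Rad9a, 59.7% of that of Hus1b and 49.8% of that of Topbp1, against a median of 19% over all genes tested. Its share was 26.5% for Hus1 and 24.9% for Atrip. It was below that median for Rad17 (18.8%), Atr (13.7%), Rad1 (6.4%), Chek1 (3.1%) and Rad9b (1.9%). Location held the most for Atrip (44.4%) and day for Chek1 (48%). For 5 members an interaction held the most: genotype with day for Hus1 (45.8%) and Rad17 (50.3%), location with day for Rad1 (54.1%), location with genotype for Atr (32.8%), and all 3 together for Rad9b (55.1%). Without replicates each share, the interactions included, also holds variation between cultures. The SD of log2 CPM was 0.17 for Rad17, 0.23 for Chek1 and 0.27 for Topbp1, and only Rad9a (0.95) and Hus1b (0.73) exceeded the median of all genes, 0.66.

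**Figure D3:**
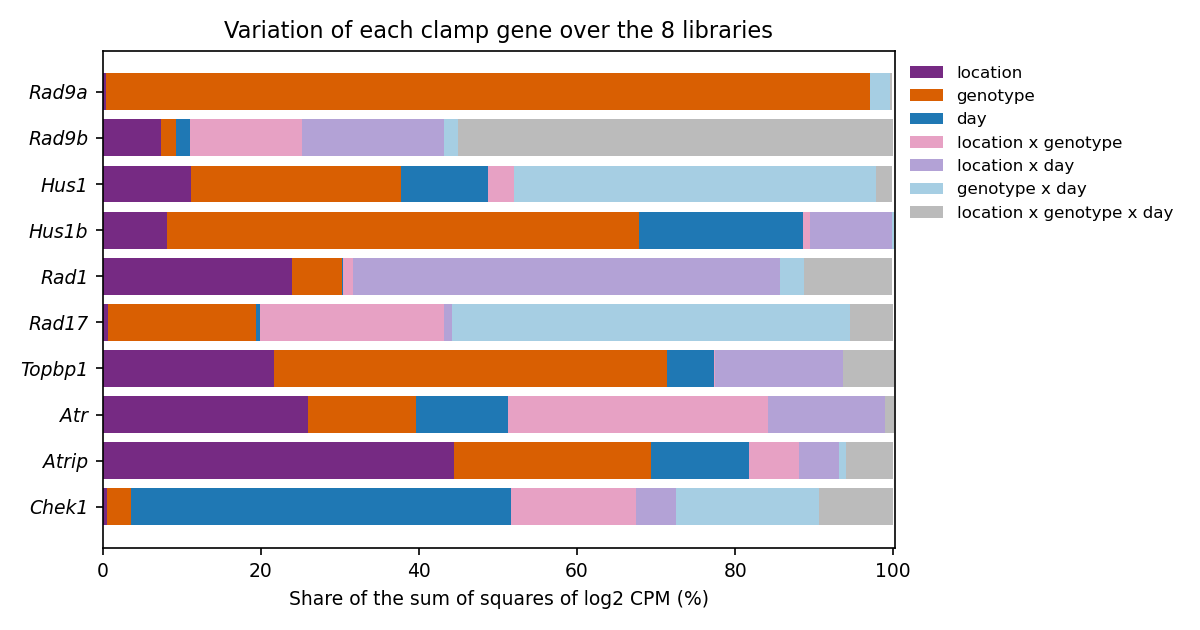
Share of the log2 CPM variation, as sums of squares (horizontal axis, percent), of each clamp gene held by location, genotype, day and their interactions over the 8 libraries. The genotype bar fills 96.7% for Rad9a, whereas an interaction holds the largest share for Rad9b, Hus1, Rad1, Rad17 and Atr.

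The genes around Rad9a were examined for changes that went with the deletion. Of the 17 neighbours within 100 kb that were examined, 15 passed the filter and 0 were called by edgeR (4 had an unadjusted p under 0.05, beside 4135 of the 20473 genes), 5 with a fold change above 0 and 10 below (median -0.15). Those above 0 were Rps6kb2, a ribosomal S6 kinase gene, with a log2 fold change of 0.65 (adjusted p 0.152), Tbc1d10c (0.24), Ppp1ca (0.18), Cabp4 (0.12) and Ptprcap (0.06). Rps6kb2 stood between 13.8 and 16.5 CPM in R9wt and between 21.2 and 25.4 CPM in R9del, higher in 4 of 4 pairs with groups that did not overlap, and DESeq2 called it (adjusted p 0.0221). Ssh3, a cofilin phosphatase gene, had the lowest, -1.42 (adjusted p 0.11), and it was called with the pairs as a block (adjusted p 0.0411), by DESeq2 (0.0209) and without Ground_R9wt_D1 (0.0433), lower in 4 of 4 pairs, at 6.28, 18.6, 26 and 15.6 CPM in R9wt against 4.98, 6.78, 8.33 and 4.71 CPM in R9del. Pitpnm1 (-0.93), Pold4, the small subunit of DNA polymerase delta (-0.92), Tmem134 (-0.45), Clcf1 (-0.36), Coro1b (-0.19), Ankrd13d (-0.16), Carns1 (-0.15), Adrbk1 (-0.15) and Cdk2ap2 (-0.11) made up the rest. Of these Pitpnm1 (unadjusted p 0.0177, adjusted p 0.159) and Pold4 (0.018, 0.16) were lower in 4 of 4 pairs with groups that overlapped, as was Coro1b (0.321, 0.6), and Adrbk1 was lower in 4 of 4 pairs with groups that did not overlap (34.1 to 36.8 CPM in R9wt, 30.9 to 33.6 CPM in R9del; adjusted p 0.704).

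**Figure D4:**
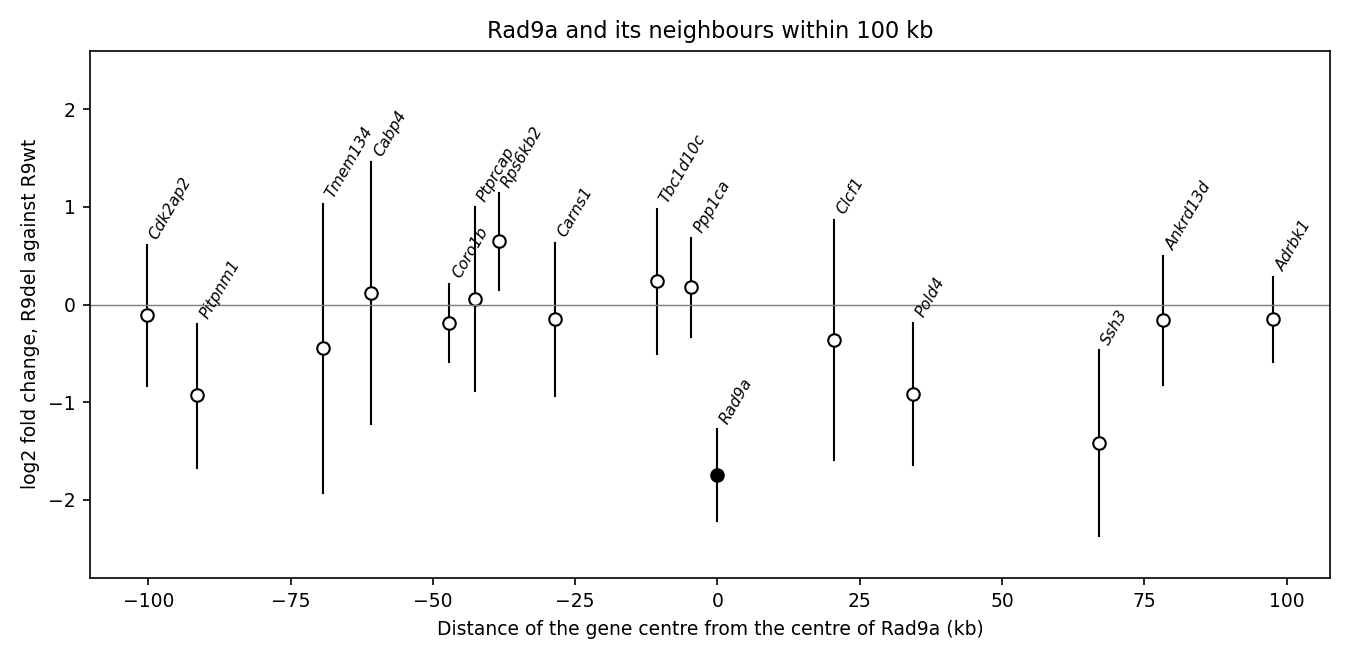
Log2 fold change in R9del against R9wt (points) with 95% intervals (lines) for Rad9a and 15 tested neighbours, by the distance of the gene's centre from the centre of Rad9a in kilobases. Rad9a, at -1.75, is the only filled point (adjusted p under 0.05).

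The 5 genes whose pattern over the 8 libraries was closest to that of Rad9a, by the root mean square difference of centred log2 CPM among 13045 genes, were Vax2os1 (0.231), Ubac2 (0.238), Rcn3 (0.239), Ly6g6d (0.245) and ENSMUSG00000097320 (0.256), which has no symbol in the tables used. Ubac2, for instance, stood between 136 and 191 CPM in R9wt and between 57.6 and 75.3 CPM in R9del. The partner nearest to Rad9a was Topbp1, at rank 2016 (0.743), and Hus1 was at rank 7370 (1.07). Hus1b was not ranked, because its mean level was below the limit set for this search. Genotype held 96.7% of the variation of Rad9a, so the ranks mainly compare the genotype difference of each gene with that of Rad9a. They give no separate evidence on the partners. By Pearson correlation, 1 of these 5 genes (Ubac2) was again among the 5 closest, beside Tmem180, H2-Q4, Tkt and Arl3. The libraries fall into 2 clusters by Rad9a level, which are the genotypes, so no pooled correlation of Rad9a with its partners is given.

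The other genes of the checkpoint, 26 in 5 groups, were compared between the genotypes as a background for the members. None of the 26 was called in R9del by edgeR, beside 417 of 20473 genes (2.04%). An unadjusted p under 0.05 was found for 2 (Etaa1 and Timeless), beside 4135 of 20473 genes. The block and DESeq2's Wald test each called 1, beside 1733 and 2046 genes. Etaa1, an activator of Atr that works apart from the clamp, stood at 31.3, 8.09, 11.8 and 14.4 CPM in R9wt and at 67.1, 51.4, 41 and 28.3 CPM in R9del, higher in 4 of 4 pairs although Space_R9del_D5 lay below Ground_R9wt_D1. Its log2 fold change was 1.52 (SE 0.44; adjusted p 0.104), and it was the gene called with the pairs as a block (adjusted p 0.0245), by DESeq2 (0.0161) and without Ground_R9wt_D1 (0.0426). Timeless, of the fork protection complex, stood between 64.4 and 97.9 CPM in R9wt and between 111 and 122 CPM in R9del, with a log2 fold change of 0.49 and an adjusted p of 0.201, higher in 4 of 4 pairs, and it was named for its unadjusted p after its values were seen.

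By group, the 4 small loader subunits ran from Rfc4 at -0.62 to Rfc5 at 0.47 on the log2 scale, the second 0.72 with the pairs as a block and 0.12 to 1.12 when 1 library was left out, and the list of 5 with Rad17 had a median of 0.15. In the list of 9 for Atr activation and Chek1 the extremes were Etaa1 and Atrip, with a median of 0.09. The single-stranded DNA binding genes ran from Rpa3 (-0.36) to Rpa1 (0.62), and the targets of Chek1 from Cdc25c (-0.36) to Wee1 (0.18). In the Atm arm, the parallel kinase pathway for double-strand breaks, H2afx (-0.57) and Rnf168 (0.64) were the extremes and the median of the 10 genes was 0.04. The replication and proliferation genes ran from Mcm6 (-0.19) to Mcm5 (0.4), 0 of 12 called, with a median of 0.12.

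Markers of cell state were examined beside these values. The mESC markers summed to between 2890 CPM in Space_R9wt_D1 and 6070 CPM in Ground_R9wt_D1, led by Pou5f1 at a mean of 1330 CPM, and 0 of the 10 were called in R9del, with Klf4 (-0.53) and Zfp42 (1.31) at the extremes. The Zfp42 value was 1.01 to 2.17 when 1 library was left out. Of the neural markers 4 of 5 were tested, since Sox1 was not matched, and 1 was called: Tubb3, a neuronal tubulin, at 26.3, 11, 6.35 and 11.3 CPM in R9wt and at 83.7, 78, 72.5 and 117 CPM in R9del, rose by 2.68 on the log2 scale (SE 0.43; adjusted p 0.0328; higher in 4 of 4 pairs). The Tubb3 call held without Ground_R9wt_D1 (adjusted p 0.0272) and was lost without Ground_R9wt_D5 (0.0681), Space_R9wt_D1 (0.0826), Space_R9wt_D5 (0.0536), Ground_R9del_D1 (0.104), Ground_R9del_D5 (0.051), Space_R9del_D1 (0.0938) or Space_R9del_D5 (0.0534). The neural markers summed to 54, 31.1, 44.7 and 28.9 CPM in R9wt and to 147, 114, 140 and 152 CPM in R9del, so the sum was higher in each R9del library than in any R9wt library. Most of that difference was Tubb3, while Pax6 (0.29) and Nes (0.46) were not called. Neurod1, a neural transcription factor, had a log2 fold change of 1.94 (adjusted p 0.0676; higher in 4 of 4 pairs, groups not overlapping) and was called with the pairs as a block (2.05, adjusted p 0.0115), and it is named after its values were seen. The part of these markers in the values of the members was not tested.

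The other marker lists had 0 genes called by edgeR in R9del, with an unadjusted p under 0.05 for 1 fibroblast, 1 primitive endoderm, 2 mesendoderm and 1 trophoblast marker, of which Eomes is in both of the last 2 lists. The fibroblast markers summed to between 32.9 and 79.3 CPM, led by Thy1 at a mean of 22.2 CPM, with Col3a1, Postn, Dcn, Twist2 and Lum under 1 CPM on average, and ran from Pdgfrb (-1.3) to Col3a1 (1.77) on the log2 scale. Col3a1 stood between 0 and 0.24 CPM, and its value was 1.33 to 2.95 when 1 library was left out. The primitive endoderm markers, led by Dab2, summed to between 17.3 CPM in Space_R9wt_D1 and 226 CPM in Space_R9del_D5, and ran from Sox17 (-0.39) to Sox7 (2.41). The mesendoderm markers, led by Eomes, summed to between 6.22 and 33.6 CPM, ran from Gsc (-3.18) to Mixl1 (-0.01, or 0.05 with library size alone), and had Gsc and Mesp1 under 1 CPM on average. Gsc was at 0 CPM in Space_R9wt_D1, Space_R9del_D1 and Space_R9del_D5. The size of its change is poorly set, at -4.23 to -1.89 when 1 library was left out. The trophoblast markers, led by Krt8 at a mean of 172 CPM, summed to between 49.5 CPM in Space_R9wt_D1 and 740 CPM in Space_R9wt_D5, ran from Eomes (-1.17) to Hand1 (0.12), and had Cdx2 and Elf5 under 1 CPM on average. With the pairs as a block the Hand1 value was 2.07, higher in 3 of 4 pairs and not called. With the pairs as a block Sox7, Pdgfrb and Gsc were called (adjusted p 0.016, 0.0331 and 0.0441), and Sox7 was also called by DESeq2 (0.0423) and without Space_R9wt_D5 (0.0473). The Sox7 log2 fold change was 3.3 with the block and 4.22 without Space_R9wt_D5, and leaving out 1 library gave 1.98 to 4.22. No marker of these lists was at 0 in all libraries.

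Spaceflight was compared with the ground next. None of the 10 members was called in space by edgeR, by DESeq2 or with the pairs as a block, against 1294 genes by edgeR over the whole table (6.32%), 243 higher (1.19%) and 1051 lower (5.13%), and 845 without Ground_R9del_D5. The higher count depended most on the fit, at 53 to 186 (792 to 1044 lower) when 1 library was left out and at 805 (1578 lower) by DESeq2. At a fold change of 2 or more with an unadjusted p under 0.05, 0 members passed, against 2227 genes (10.9%). An unadjusted p under 0.05 was found for 0 members, against 3865 of 20473 genes. Groups that did not overlap were found for 0 members, against 2988 genes (14.6%). At such shares counts of 0 among 10 members do not set them apart from other genes. With the pairs as a block 1 member, Atrip, had an unadjusted p under 0.05 (0.0374, adjusted p 0.183), against 4752 of 20473 genes. The member fold changes ran from -0.34 for Rad1 to 0.66 for Atrip on the log2 scale, with a median of 0.11 against 0.05 over all genes.

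Atrip had the smallest p of the members in space (log2 fold change 0.66, SE 0.36, adjusted p 0.376; higher in 3 of 4 pairs; with the pairs as a block 0.75 and 0.183). Its level in space was 1.98, 2.07 and 2 times that on the ground in 3 pairs and 0.958 times in the R9wt D1 pair. Rad9a differed little by location within each genotype, with ratios of space to ground of 0.994 and 0.842 in R9wt and of 0.883 and 0.98 in R9del (D1 and D5 in each). Its interval in this comparison was wide, -1.39 to 1.16, because each location group held both genotypes.

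The checkpoint genes called in space all stood outside the members: 4 of the 26 were lower and 0 were higher, with a median of -0.09. H2afx, the histone variant that is phosphorylated around breaks, stood at 743, 374, 370 and 360 CPM on the ground (R9wt D1 and D5, then R9del D1 and D5) and at 14.5, 32.1, 23.4 and 31.2 CPM in space, and fell by 4.19 on the log2 scale (SE 0.37; adjusted p 0.000132). Nbn, of the Mre11 complex that recruits Atm, stood between 41.4 and 63.9 CPM on the ground and between 17.9 and 21.8 CPM in space, and fell by 1.47 (SE 0.21; adjusted p 0.0024). Both were lower in 4 of 4 pairs, like the other called genes of the 26, and were called whichever library was left out. Rfc5, a small subunit of the clamp loader, stood at 345, 186, 345 and 320 CPM on the ground and at 40, 82.5, 116 and 124 CPM in space, and fell by 1.72 (SE 0.36; adjusted p 0.0181), a call lost without Space_R9wt_D5 (adjusted p 0.0603). Wee1, the kinase that opposes Cdc25, stood between 61.4 and 86.1 CPM on the ground and between 36.4 and 45.4 CPM in space, and fell by 0.78 (SE 0.19; adjusted p 0.0388), a call lost without any 1 of the 8 libraries (from 0.0535 without Ground_R9wt_D5 to 0.129 without Ground_R9del_D5), without the filter (0.0668) and with library size alone (0.0583).

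Without Space_R9wt_D5, 2 of these 4 genes were called, and with the pairs as a block 7 of the 26 were called, 6 lower and 1 higher, beside 1778 genes of the table, 1335 lower and 443 higher. The added genes were Rfc4 (log2 fold change -0.85, block adjusted p 0.0257), Rnf168 (-1.03, 0.0496) and, higher, Rpa1 (0.75, 0.034), and Rfc4 and Rnf168 are named after their values were seen. In the list for Atr activation the extremes were Etaa1 (-0.73) and Atrip, and among the single-stranded DNA binding genes Rpa3 (-0.56) and Rpa1 (0.74). Of the replication and proliferation genes, Ccna2, the S-phase cyclin, fell by 2.1 (adjusted p 0.000434), from 167 to 286 CPM on the ground to 47.9 to 69.9 CPM in space. Mcm4, of the replicative helicase, rose by 1 (adjusted p 0.0113), from 193 to 277 CPM to 382 to 476 CPM, a call lost without Ground_R9del_D5 (0.051), both in 4 of 4 pairs, and the other 10 of the 12 were not called. With the pairs as a block Mcm2 was called too (log2 fold change 0.73, adjusted p 0.0396, higher in 4 of 4 pairs), named after its values were seen.

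**Figure D5:**
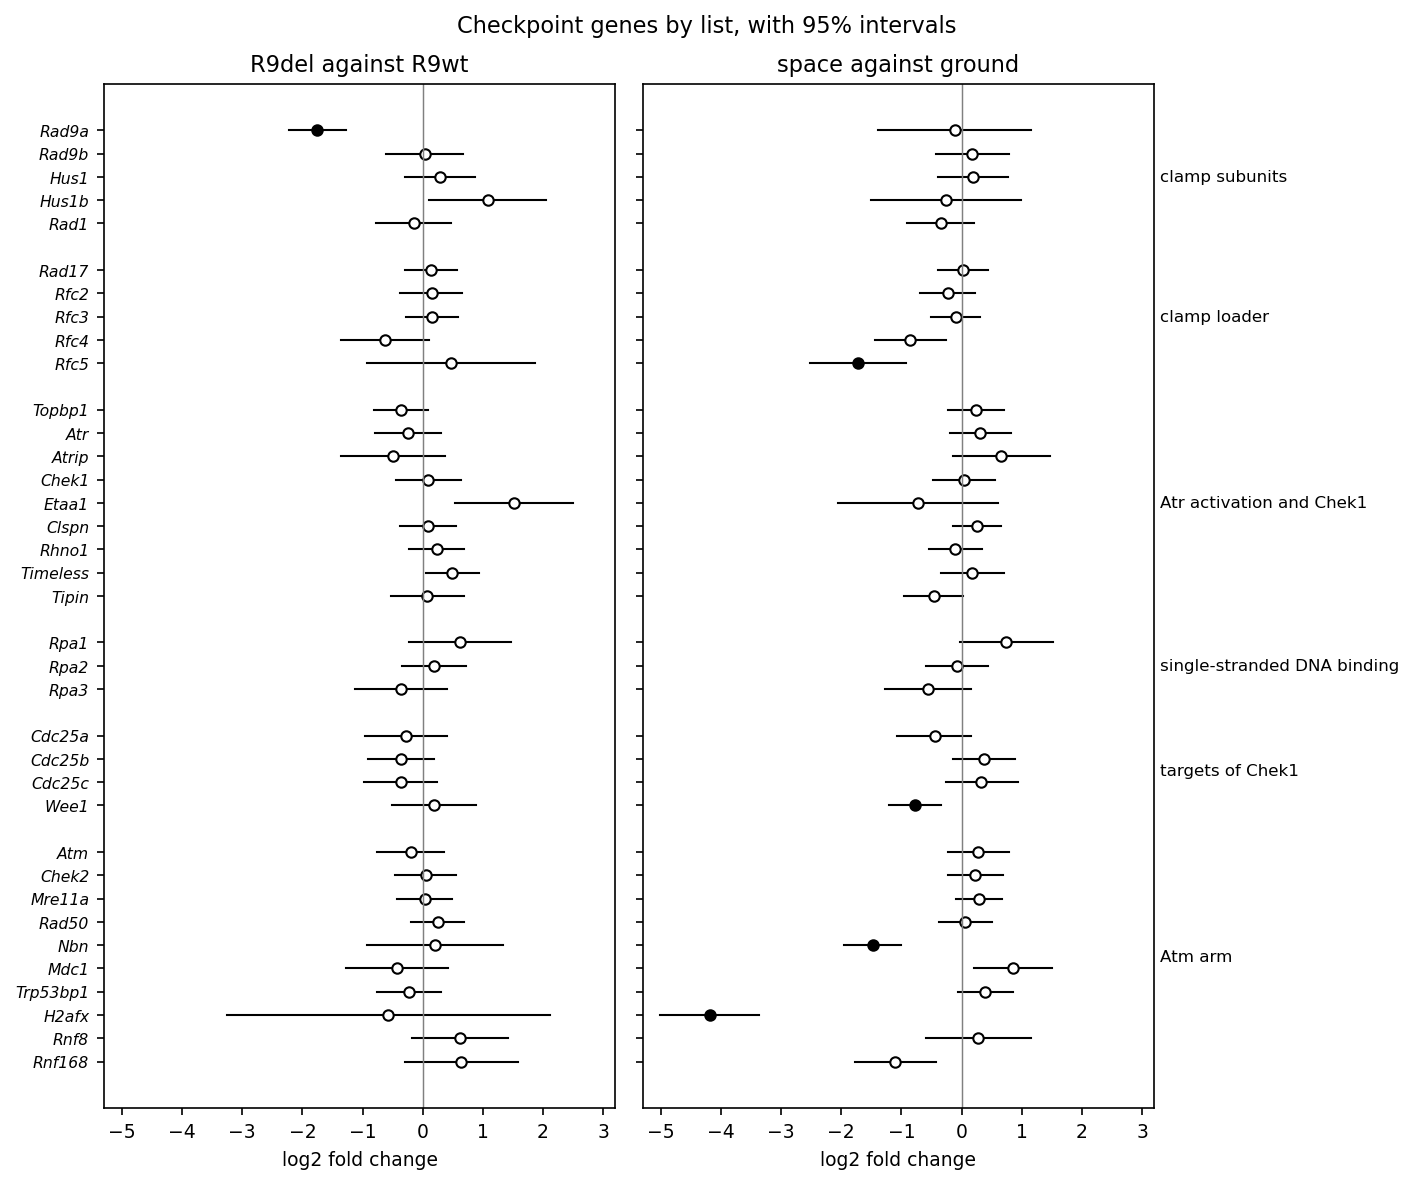
Log2 fold changes (points) with 95% intervals (lines) of the clamp and checkpoint genes by list, for R9del against R9wt (left) and space against ground (right). Filled points are called at an adjusted p under 0.05: Rad9a on the left, and Rfc5, Wee1, Nbn and H2afx, all lower, on the right.

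Markers of cell state moved with location too. Of the mESC markers Esrrb rose by 1.2 on the log2 scale (adjusted p 0.00635) and Sox2 fell by 0.94 (adjusted p 0.0317), the second a call held in 1 of 8 fits that left out a library (without Ground_R9wt_D5, 0.0139) and lost in the other 7 (0.0516 without Space_R9wt_D5 to 0.0927 without Ground_R9del_D5). Sox17 fell by 3.88 (adjusted p 0.0187), from 2.46 to 5.96 CPM on the ground to 0.0608 to 0.773 CPM in space, and lost the call without Ground_R9del_D5 (0.0513), Space_R9del_D1 (0.0538) or Space_R9del_D5 (0.0574). Cdx2 fell by 2.99 (adjusted p 0.0329) and lost the call in 6 of the 8 such fits, from 0.0507 without Ground_R9del_D5 to 0.0914 without Space_R9del_D1, holding it without Ground_R9wt_D1 (0.0383) or Space_R9wt_D5 (0.0315). Each of these 4 markers moved the same way in 4 of 4 pairs. Most other members of the lists of Sox17 and Cdx2 went the other way. Of the 7 primitive endoderm markers 5 had a fold change above 0 in space and 2 below. Their median was 1.02, and Dab2, the most abundant, was at 1.66. Of the 4 trophoblast markers tested, 3 were above 0 and 1 below. Their median was 0.57, with Krt8 at 0.67 and Hand1 at 0.91. The fibroblast list ran from Twist2 (-1.49) to Pdgfra (1.81), the mesendoderm list from Gsc (-5.15) to Eomes (0.46) and the neural list from Neurod1 (0.02, or -0.13 with the pairs as a block) to Pax6 (0.35), with 0 called in each by edgeR. Twist2 was at 0 CPM in Space_R9del_D1 and Space_R9del_D5, and its value was -2.89 to -1.1 when 1 library was left out. DESeq2 called Pdgfra (adjusted p 0.00865) and Gsc (0.00324), as did leaving out Space_R9wt_D1 for Pdgfra (0.0179) and Space_R9wt_D5 for Gsc (0.0471). Gsc was at 0 CPM in 3 space libraries and at 0.115 CPM in Space_R9wt_D5, so the size of its change is poorly set, from -9.28 without Space_R9wt_D5 to -4.07 without Ground_R9wt_D5. With the pairs as a block Gsc (-5.71, adjusted p 0.00785) and Pdgfrb (1.12, 0.0383) were called, as were the mESC markers Utf1 (-0.82, 0.027) and Fgf4 (-1.06, 0.0294), each in 1 direction in 4 of 4 pairs, and Pdgfrb, Utf1 and Fgf4 are named after their values were seen. The part of these shifts in the values of the checkpoint genes was not tested.

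Whether the effect of the deletion differed between space and ground was tested as an interaction with day as a covariate. edgeR called 0 of the 10 members and 0 of 20473 genes (0%), with 0 members and 620 genes at an unadjusted p under 0.05, and DESeq2's Wald test called 24 genes and 0 members. For Rad9a the interaction was 0.02 on the log2 scale (95% interval -0.93 to 0.97). The largest in size was that of Atr, -0.62 (95% interval -1.53 to 0.28; adjusted p 1): in space Atr stood at 64 and 46.6 CPM in R9wt against 42.9 and 34.2 CPM in R9del, and on the ground at 35.4 and 37.3 against 39.7 and 38.8 CPM.

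Culture duration gave 0 called members and 0 called genes in edgeR (0%, also for genes higher and for genes lower). An unadjusted p under 0.05 was found for 885 of 20473 genes and 0 members, and DESeq2's Wald test called 91 genes and 0 members. At a fold change of 2 or more with such a p 704 genes (3.44%) and 0 members passed, and 582 genes (2.84%) and 0 members had groups that did not overlap. The member fold changes at D5 ran from -0.33 for Atrip to 0.61 for Hus1b, 1 above 0 and 9 below, with a median of -0.13 against -0.03 over all genes. Chek1, whose variation lay mainly with day, stood at 27.1, 28.8, 31.6 and 35.5 CPM at D1 and at 29.4, 22.6, 22 and 26 CPM at D5, with groups that overlapped and a log2 fold change of -0.3 (95% interval -0.85 to 0.25; adjusted p 1).

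The other checkpoint genes had 0 calls of 26 at D5, with a median of -0.04. Their extremes were Rfc5 (-0.25) and Rfc2 (-0.01) among the loader genes, Etaa1 (-0.56) and Rhno1 (0.03) in the list for Atr activation, Rpa1 (-0.5) and Rpa3 (0.24), Cdc25b (-0.16) and Cdc25c (0.43), and H2afx (-0.53) and Rnf8 (0.4). The replication and proliferation genes ran from Mcm5 (-0.66, unadjusted p 0.0246) to Top2a (0.16), 0 of 12 called. Of the marker lists 0 genes were called at D5 by edgeR. The mESC list ran from Zfp42 (-0.77) to Nanog (0.5), the fibroblast list from Pdgfrb (0.01) to Col1a2 (1.88), the primitive endoderm list from Sox7 (0.61) to Dab2 (2.06), the mesendoderm list from Mixl1 (-0.12, or 0.04 with the pairs as a block) to Gsc (1.35), the neural list from Pax6 (-2.32) to Tubb3 (0.2) and the trophoblast list from Cdx2 (0.62) to Krt8 (2.36, adjusted p 0.887). The list medians were -0.87 for the neural, -0.04 for the mESC, 0.34 for the fibroblast, 0.42 for the mesendoderm, 1.34 for the primitive endoderm and 1.49 for the trophoblast markers.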

How the data were processed

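RNA of 8 mESC cultures was extracted with TRIzol and sequenced as mRNA libraries with paired-end reads. The authors checked the reads with FastQC, mapped them to mm9 with TopHat 2.0.9 and deposited raw read counts per Ensembl identifier, and the counting program, its annotation and its use of strand are not given in the sources used here. From the deposited counts, genes kept by filterByExpr (minimum count 10) were normalized by TMM and tested with edgeR 4.0.16 (glmQLFit, glmQLFTest) in R 4.3.3, 4 libraries against 4 without covariates, with Benjamini-Hochberg adjustment over all genes tested. DESeq2 1.42.0 served as an alternative, beside other scalings, no filter, a block and leaving out each library. Standard errors and 95% intervals come from the quasi-likelihood F statistic and its degrees of freedom.

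Matched libraries share location, genotype or day by their labels, and their deviations from the group means correlated across genes at 0.283 to 0.609 in every pair of every comparison, against means of -0.152 to -0.124 for other pairings, so a fit with the 4 pairs as a block was run. Pair directions were counted for the named genes only. The share of all genes with the 4 pairs in the same direction was not computed, so these counts are descriptions. Gene positions and exons came from GENCODE (mm9), and copies were searched with blastn 2.17.0. The genes named are the 10 members; in each list the called genes, up to 4, or else the largest rise and fall (for the marker lists at D5 only the block was kept as an alternative); the tested neighbours of Rad9a within 100 kb, of which 1 is not reported here; and the 5 genes most like Rad9a among those with a mean log2 CPM of at least 1. Of 88 listed symbols 87 were matched. The members and lists were chosen with earlier results of these data known. The edgeR and DESeq2 tests of 4 libraries against 4 were tried on simulated data without effects of the other conditions. The block and the interaction were not tried in this way. P-values measure the spread between 4 libraries that the authors took as a group's replicates, although each came from a different condition and no condition had a second library.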

Additional observations from a re-analysis of the deposited data

Results flagged for a closer look

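Of 60 sets of 4 libraries (10 members in 6 groups), 3 held a library far from the other 3, and chance alone gives about 1 in 20. Rad9b stood at 16.1 CPM in Ground_R9wt_D5, below the other ground libraries. Hus1b stood at 0.365 CPM in Space_R9wt_D1, below the other R9wt libraries. Atrip stood at 5.21 CPM in Ground_R9del_D1, below the other D1 libraries.

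In 7 of 60 contrasts of a member, both pairs of one kind moved opposite to both pairs of the other, where random signs alone give about 1 in 8, and these differences were not tested apart from the interaction of location and genotype. Hus1 was higher in R9del at D5 and slightly lower at D1, a difference of 0.86 in the mean log2 ratio, and equally its change from D1 to D5 was upward in R9del and downward in R9wt (0.86). The change from D1 to D5 was also upward in R9del and downward in R9wt for Rad9a (0.57), and the reverse for Rad17 (-0.44). Rad1 was lower at D5 on the ground and higher at D5 in space, a difference of 1.04. Rad17 was lower in space in R9del and higher in space in R9wt, a difference of -0.31. Atr was lower in R9del in space and slightly higher on the ground, a difference of -0.62, which the interaction test did not call (adjusted p 1 in edgeR). Several of these contrasts rest on the same 8 values of a gene. Those of genotype with day cannot be told apart from the different seeding of the genotypes at D5.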

How the results depend on the processing

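Of 1339 fold changes recomputed, 1186 kept their direction and their side of the threshold, 58 lost a call, 22 gained one and 73 changed sign. For R9del against R9wt the table held 157 calls without the filter, 2046 with DESeq2's Wald test, 1733 with the pairs as a block and 0 to 528 when 1 library was left out. The members held 0 to 1 when 1 library was left out. The other checkpoint genes held 1 with DESeq2, 1 with the block and 0 to 1 when 1 library was left out. For space against ground the table held 2383 with DESeq2 and 845 to 1230 when 1 library was left out, and the other checkpoint genes 7 with the block and 2 to 4. DESeq2 called 91 genes at D5. Outside the fits that left out a library, these changed sign: Mixl1 0.05 in R9del with library size alone, Rad17 -0.01 in space without the filter, Neurod1 -0.13 in space with the block, and with the block at D5 Rad9a 0.04, Rfc2 0.02, Rfc5 0.03, H2afx 0.13 and Mixl1 0.04. Leaving out 1 library gave log2 ranges across 0 for R9del against R9wt (Rad9b -0.15 to 0.26, Chek1 -0.05 to 0.19, Wee1 -0.05 to 0.34, H2afx -1.05 to 0.46, Sox17 -1.44 to 0.53, Mixl1 -0.16 to 0.42, Hand1 -0.3 to 2.55, Cdk2ap2 -0.26 to 0.22, Tmem134 -0.78 to 0.2, Cabp4 -0.22 to 0.53, Ptprcap -0.21 to 0.22), for space against ground (Rad9a -0.55 to 0.19, Rad17 -0.06 to 0.09, Chek1 -0.11 to 0.13, Eomes -0.35 to 0.74, Pax6 -0.27 to 1.08, Neurod1 -0.61 to 0.68) and for D5 against D1 (Rad9a -0.44 to 0.23, Rad9b -0.26 to 0.14, Hus1 -0.29 to 0, Rad1 -0.26 to 0.11, Rad17 -0.09 to 0.06, Topbp1 -0.24 to 0.05, Atr -0.31 to 0.01, Rfc2 -0.14 to 0.17, Rfc5 -0.69 to 0.12, Rhno1 -0.05 to 0.13, Cdc25b -0.29 to 0.04, H2afx -1.02 to 0.59). The cause was not tested.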
